A study of Homo sapiens with 8 samples.

Results

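The HOX genes described here were all 39 gene names in the deposited matrix made of HOX, a cluster letter from A to D and a number, out of 60286 genes named in it. The HOXA cluster held 11 of them, HOXB 10, HOXC 9 and HOXD 9. The rule used their names alone, and each had a count in 1 or more cells. They were followed as a sum and by paralog number across the 46 culture tags in the cell names and across cell clusters named from marker genes.

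HOX genes encode homeodomain transcription factors that give cells their position along the head to tail axis of the embryo. Genes that hold the same place in the 4 clusters share a number and are called paralogs: low numbers lie at the end of a cluster that is switched on first and farthest forward, up to the hindbrain, and high numbers mark the trunk, the limbs and the tail. Forebrain and midbrain cells do not normally use HOX genes, so in neural cultures their transcripts are read as a sign of hindbrain, spinal cord, neural crest or mesoderm. Retinoic acid switches on the low numbered genes, MEIS and PBX proteins bind DNA together with HOX proteins, and Polycomb repressive complex 2 keeps the clusters silent.

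The study profiled single cells from 2-D and 3-D neural cultures grown from the H1 line, a human embryonic stem cell line, to define what the cultures were made of and how they responded to dopamine, cocaine and morphine. Barcoded cells were sequenced in 8 sublibraries, which are portions of 1 pool, so the 8 deposited samples are not the groups compared. Each cell name carried 1 of 46 culture tags, which fell into 9 arrangements and 17 groups by arrangement and treatment. The labels name the drugs and untreated cultures without saying which tag is which, so groups are called by their tags. The arrangement 2DMono had 6 tags and 3DMono 6, in pairs tagged AcDop, AcMor and Vehic. The arrangement 2DCocu had 12 tags, 4 each of AcCoc, AcMor and Vehic, and 3DFusi had 10, of which 4 were AcCoc, 3 AcMor and 3 Vehic. The arrangements 2DProto2Fjo, 2DProto3Wu and 2DProto4Nic had 2 tags each, and 3DProto1For and 3DProto2Xia had 3 each, with no treatment in the tag. All came from 1 cell line, per the labels, and 2 to 3 organoids were pooled for a dissociation. Whether tags are separate cultures is not stated, so p-values measure the spread between tags, which may be technical.

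The matrix held 793413159 expected counts in 43693 cells, with a median of 12776 counts per cell, and the tags held between 317 and 1959 cells. HOX levels are given as CPM, a gene's expected counts over those of all genes in the same cells, on the usual scale of that unit. The 39 genes together reached 18575 expected counts or 23.4 CPM over all cells. The 8 sublibraries gave 22.1 to 25.4 CPM (mean 23.4 ± 1.15, SD, n = 8). In a sum over all cells of a tag, fewer cells of a type and less RNA per cell cannot be told apart.

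A few genes carried most of the signal. HOXD3 took 21.7% of HOX counts, HOXA3 18.1%, HOXB3 15.6% and HOXC4 9.95%, followed by HOXB7 with 6.02%, HOXC6 with 4.73% and HOXD10 with 3.26%. HOXA9 (2.96%), HOXA2 (2.76%) and HOXB9 (1.83%) completed the 10 highest, which together held 86.9%. The 3 paralogs numbered 3, which in the embryo reach the hindbrain, made up 55.4%. Per kilobase of exon the order of the leading genes changed little: HOXD3 had 1136 counts per kilobase, HOXA3 781, HOXB7 731, HOXC4 678 and HOXB3 388. Per kilobase of the whole gene, which suits reads from introns, HOXA2 came first with 209 and HOXD3 second with 110. At the other end, 4 genes (HOXA4, HOXB1, HOXC5 and HOXD12) had fewer than 10 counts in the whole matrix.

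Part of this ranking depends on how reads were shared out between genes. By the GENCODE v29 gene models (GRCh38), 22 of the 39 genes overlap another HOX gene, and these 22 held 89.8% of HOX counts. HOXD3 overlaps HOXD4 and HOXD10 overlaps HOXD11. HOXA3 (chromosome 7, 27106184 to 27152581) spans HOXA4, HOXA5 and HOXA6, HOXB3 (chromosome 17, 48548870 to 48604912) spans HOXB4 and HOXB5 and overlaps HOXB6, and HOXC4 (chromosome 12, 54016931 to 54056030) spans HOXC5 and overlaps HOXC6. Only 32.5% of the HOXA3 entries and 17.6% of the HOXB3 entries were whole numbers, against 68.2% for HOXD3 (chromosome 2, 176136612 to 176173102), 94.2% for HOXD10 and 99.1% for HOXA2 (chromosome 7, 27100354 to 27102811). An entry that is not whole may hold a share of a read that fits more than 1 gene, though its source is not given. Levels of overlapping neighbours, antisense RNAs included, are therefore uncertain one by one, and sums over the 17 genes that overlap no other HOX gene are given beside the full sums of the arrangements. Those 17 may not be free of shared reads either: only 17.4% of the HOXD8 entries, 27.6% of HOXA7 and 38.8% of HOXD9 were whole numbers.

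Promoter sequences are shown for 3 genes whose levels differed in distinct ways below: HOXA2, which was higher in 2DCocu than in 3DFusi, HOXD3, which had the most counts, and HOXC4, which was high in 3DFusi. Each window runs from 250 bases before to 50 bases after a RefSeq gene start (GRCh38.p14), 5′ to 3′ on the gene's strand. Capitals mark matches, on either strand, to TGATNNAT (the site of HOX with PBX), TGACAG (MEIS) or TTTAT (posterior HOX or CDX).
HOXA2, chr7:27102634-27102933, minus strand: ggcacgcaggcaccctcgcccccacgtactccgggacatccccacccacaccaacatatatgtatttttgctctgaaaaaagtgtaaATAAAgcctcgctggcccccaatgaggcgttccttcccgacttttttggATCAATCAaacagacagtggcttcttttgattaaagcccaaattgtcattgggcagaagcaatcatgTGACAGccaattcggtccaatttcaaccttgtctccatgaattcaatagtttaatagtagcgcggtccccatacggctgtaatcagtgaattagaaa
HOXD3, chr2:176157057-176157356, plus strand: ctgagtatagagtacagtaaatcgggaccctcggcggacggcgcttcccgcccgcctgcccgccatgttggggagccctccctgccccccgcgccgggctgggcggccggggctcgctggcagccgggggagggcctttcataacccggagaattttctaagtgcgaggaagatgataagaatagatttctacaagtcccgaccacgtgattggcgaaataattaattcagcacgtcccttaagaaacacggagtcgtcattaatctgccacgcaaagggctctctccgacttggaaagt
HOXC4, which shares this window with HOXC5, chr12:54016638-54016937, plus strand: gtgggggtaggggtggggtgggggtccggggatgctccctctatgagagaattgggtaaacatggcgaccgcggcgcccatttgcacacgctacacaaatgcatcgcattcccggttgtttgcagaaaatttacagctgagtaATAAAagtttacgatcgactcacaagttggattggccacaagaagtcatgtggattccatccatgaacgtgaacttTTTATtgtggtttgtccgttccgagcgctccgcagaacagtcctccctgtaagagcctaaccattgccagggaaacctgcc

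The HOXA2 window held 1 TGATNNAT and 1 TGACAG match, and the HOXD3 window held no match to any of these letters. Windows were at hand for 20 of the 39 genes, 26 different ones in all, among 34943 different windows of the same length. TGATNNAT was in 3 of the 26 (11.5%) against 7.42% of all windows, TGACAG in 4 (15.4%) against 15.8%, and TTTAT in 14 (53.8%) against 35.0%. A direct repeat of AGGTCA with a spacer of 5 bases, a retinoic acid receptor motif, was in 0 of the 26 and in 2 of all windows. The windows had a median of 22.5 CG dinucleotides against 14 over all windows, while their GC content was alike (58.0% against 58.7%). A match describes letters and does not show that a factor binds there.

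The arrangements differed widely in their summed HOX level, and the 3-D arrangements differed most within themselves. The highest means were those of 3DProto1For (130 ± 144 CPM, SD, n = 3 tags) and 3DFusi (66.6 ± 44.6 CPM, SD, n = 10), followed by 3DProto2Xia (16.4 ± 27.6 CPM, SD, n = 3). The arrangements 2DCocu (7.42 ± 1.58 CPM, SD, n = 12) and 3DMono (7.09 ± 6.54 CPM, SD, n = 6) came next, then 2DMono (2.65 ± 0.958 CPM, SD, n = 6). The lowest were 2DProto4Nic (0.945 CPM), 2DProto3Wu (0.508 CPM) and 2DProto2Fjo (0.505 CPM), with 2 tags each. In this order the ranges of neighbours overlapped for 3DProto1For and 3DFusi, 3DFusi and 3DProto2Xia, 3DProto2Xia and 2DCocu, 2DCocu and 3DMono, 3DMono and 2DMono, and 2DProto3Wu and 2DProto2Fjo. Over the 17 genes without overlapping gene models the order differed: 3DProto1For had 9.43 ± 8.02 CPM (SD, n = 3), 3DFusi 4.25 ± 2.13 (SD, n = 10), 2DCocu 3.34 ± 0.596 (SD, n = 12), 3DProto2Xia 2.10 ± 3.18 (SD, n = 3), 2DMono 1.03 ± 0.507 (SD, n = 6) and 3DMono 0.609 ± 0.284 (SD, n = 6). The 2DProto4Nic, 2DProto2Fjo and 2DProto3Wu means were 0.384, 0.167 and 0.119 CPM. On this sum 2DMono thus stood above 3DMono and 2DCocu above 3DProto2Xia, with overlapping ranges in both pairs. The arrangement 3DFusi held 61.7% of all HOX counts with 24.3% of all counts, and 3DProto1For held 24.7% with 4.22%.

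**Figure D1:**
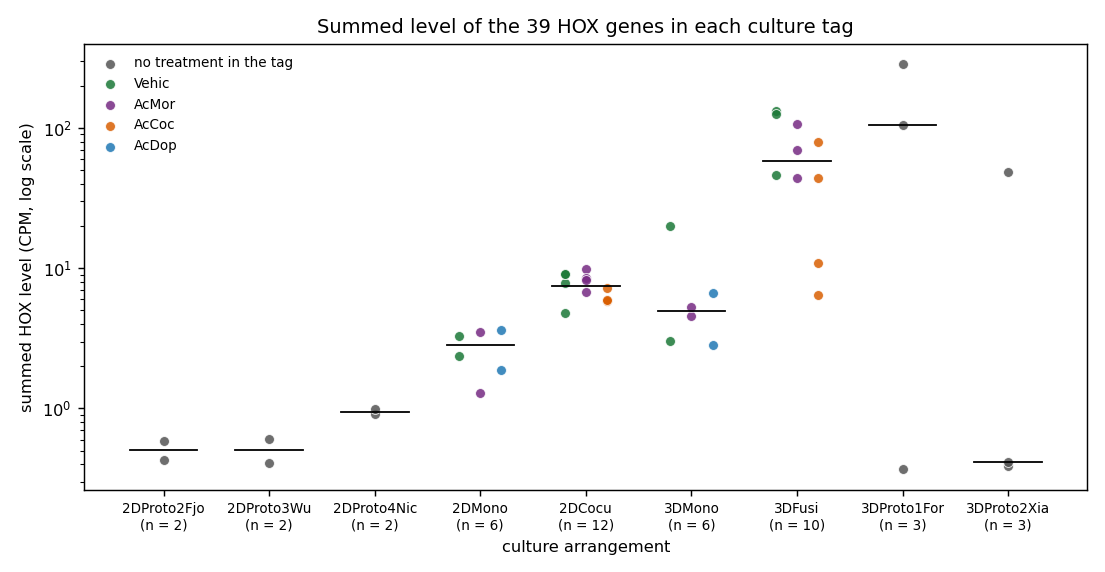
Summed level of the 39 HOX genes (CPM, log axis) in each of the 46 culture tags by arrangement, with 1 point per tag coloured by treatment tag and a line at the median of the arrangement. The 2DCocu tags lie between 4.82 and 9.83 CPM, the 3DFusi tags between 6.44 and 133 CPM, and 1 tag of 3DProto1For and 2 tags of 3DProto2Xia lie below the lowest 2DMono tag, at 1.28 CPM.

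Tags of the same 3-D arrangement stood far apart. In 3DProto1For the tags numbered 1, 2 and 3 had 284, 104 and 0.368 CPM, and in 3DProto2Xia they had 0.386, 48.3 and 0.414 CPM. A HOX count, meaning an entry of at least 0.5 for any of the 39 genes, was found in 51.4%, 47.2% and 0.302% of the cells of the 3DProto1For tags and in 0.426%, 26.3% and 0.462% of those of 3DProto2Xia. The tags that were low in HOX also held no cell of the mesenchymal-like and muscle-like clusters or of cluster 23 (described below). Such cells made up 36.7% and 61.3% of 3DProto1For tags 1 and 2 and 41.3% of 3DProto2Xia tag 2. Without the cells of those clusters the sums were 372, 67.9 and 0.368 CPM in 3DProto1For, and 3DProto2Xia tag 2 fell to 9.18 CPM.

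In 3DFusi the number in the tag went with the HOX level across treatments. Tags numbered 1 had 6.44 (AcCoc), 43.6 (AcMor) and 45.8 CPM (Vehic), and the only tag numbered 2 had 10.8 CPM (AcCoc). Tags numbered 3 had 44.1, 107 and 133 CPM and tags numbered 4 had 79.2, 70.0 and 126 CPM, in the same order of treatments. The mesenchymal-like, muscle-like and cluster 23 cells made up 5.61% to 12.6% of the tags numbered 1 and 2 and 29.8% to 56.3% of those numbered 3 and 4. Without these cells the 10 tags still ranged from 2.53 to 137 CPM. In 3DMono, 5 tags lay between 2.83 and 6.68 CPM and the tag Vehic 2 had 20.1 CPM.

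The kind of HOX gene also differed between arrangements. Paralogs 1 to 3 made up 82.1 ± 7.70% of HOX counts in 2DCocu (SD, n = 12 tags), 62.7 ± 9.25% in 3DMono (SD, n = 6), 56.5 ± 8.13% in 3DFusi (SD, n = 10) and 34.2 ± 10.7% in 2DMono (SD, n = 6). Paralogs 4 to 9 made up 33.3% in 3DFusi and 30.6% in 3DMono, against 9.42% in 2DCocu. Paralogs 10 to 13 were the largest share in 2DMono by the mean (47.4 ± 15.4%, SD, n = 6), on a sum of 1.28 to 3.61 CPM per tag. They were not the largest in its tags AcDop 2, AcMor 1 and AcMor 2. Within 3DFusi their share was 19.8% to 34.2% in AcCoc 1, 2 and 3 and 1.86% to 4.80% in the other 7 tags. The shares of 2DMono and of the Proto tags below 1 CPM rest on few counts.

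**Figure D2:**
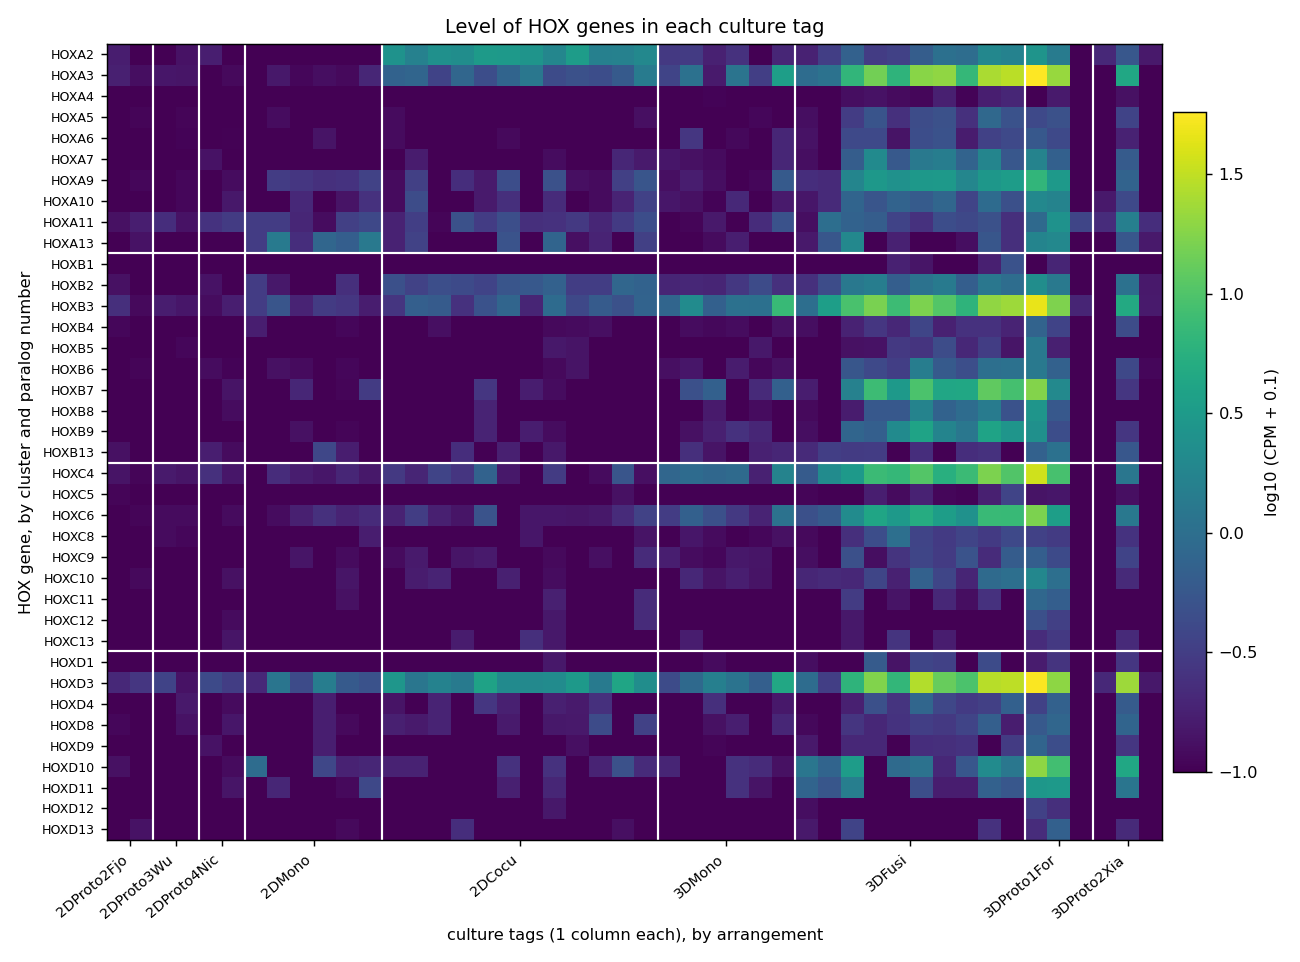
Level of HOX genes (vertical axis, by cluster and paralog number) in each of the 46 culture tags (horizontal axis, by arrangement), as log10 of CPM plus 0.1. In 2DCocu the brightest genes are HOXA2, between 1.49 and 3.22 CPM, and HOXD3, while HOXA3, HOXB3, HOXB7, HOXC4, HOXC6 and HOXD3 are bright in most 3DFusi tags and in 3DProto1For tag 1.

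Single genes showed these patterns clearly. HOXA2, the paralog with the most forward limit in the hindbrain, had 1.49 (lowest), 2.25 (median) and 3.22 CPM (highest) over the 12 tags of 2DCocu. It had 0 counts in all 6 tags of 2DMono, 0 to 0.205 CPM in 3DMono and 0.0844, 0.585 and 1.77 CPM (lowest, median, highest) in 3DFusi. HOXB9, a trunk gene, was the reverse: it had 0 to 0.0868 CPM in 2DCocu and 0, 1.41 and 3.90 CPM (lowest, median, highest) in 3DFusi. HOXB7, its neighbour, had 0 to 0.174 CPM in 2DCocu and 0, 4.27 and 12.3 CPM in 3DFusi. The 2DCocu and 3DFusi tags overlapped for all 3 genes because some 3DFusi AcCoc tags were low in HOXB7 and HOXB9 and 2 Vehic tags were high in HOXA2.

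Paralogs numbered 3 were spread more widely. HOXA3 had 0.849, 10.9 and 29.8 CPM in 3DFusi (lowest, median, highest), and 57.5, 21.5 and 0 CPM in 3DProto1For. HOXD3 had 0.223, 11.2 and 30.6 CPM in 3DFusi, and 54.8, 19.6 and 0 CPM in 3DProto1For. In 3DProto2Xia tag 2, HOXD3 reached 22.6 CPM while HOXA3 had 4.33 CPM and HOXB3 4.67 CPM. HOXD3 thus led in that tag whereas HOXA3, HOXD3 and HOXB3 were close to each other in 3DProto1For tag 1, at 57.5, 54.8 and 46.4 CPM. HOXD10, a gene of the lumbar trunk and limbs, had 19.3 and 8.31 CPM in 3DProto1For tags 1 and 2 and 4.29 CPM in 3DProto2Xia tag 2, and at most 3.29 CPM in any 3DFusi tag.

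The comparison of 3DFusi with 2DCocu, which carry the same 3 treatment tags, sets a 3-D beside a 2-D arrangement. All 11 HOX genes that could be tested differed by edgeR's quasi-likelihood test at an adjusted p of 0.05: 10 were higher in 3DFusi and HOXA2 was lower. The 3DFusi tags of a number deviated together, and this fit treats them as independent. Its SEs and adjusted p may therefore be too small, as may those of the comparison with 3DMono below. The count with the 3DFusi tags of a number summed is not reported for this comparison. Over all genes tested, 48.8% were called in that comparison (26.1% higher and 22.7% lower), so a share of that size is the background here. The other 28 HOX genes did not pass the filter on low counts, and a gene seen in 3DFusi alone passes it only because it is high there, so the count of those that passed does not describe the 39.

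HOXB7 and HOXB9 had 2.0 and 1.5 expected counts over the 12 tags of 2DCocu, so their fitted changes (8.32, SE 0.85, and 7.66, SE 0.87, on the log2 scale) rest on very few counts. The ratios of pooled CPM were 321 (exact 95% counting interval 88.5 to 2652) for HOXB7 and 145 (33.7 to 2030) for HOXB9. Among the treatment groups of 2DCocu, fitted alone, only HOXA2 and HOXD3 passed the filter, so the other 9 genes entered this test through 3DFusi and their calls add little to the levels. HOXC4, HOXC6, HOXA9 and HOXD10 had at most 4.58, 3.42, 7.69 and 4 expected counts in any 2DCocu tag. HOXC4, which like HOXC6 is a gene of the neck and upper trunk, rose by 5.23 (SE 0.48) and HOXC6 by 4.98 (SE 0.46). HOXB3 rose by 4.43 (SE 0.40), HOXA3 by 4.26 (SE 0.46) and HOXD3 by 2.44 (SE 0.41). HOXA9 and HOXD10 rose by 3.51 (SE 0.52) and 3.29 (SE 0.63), and HOXB2, a hindbrain gene, by 0.92 (SE 0.31, edgeR adjusted p 0.0169). HOXA2 fell by 1.83 (SE 0.31, edgeR adjusted p 3.58e-05). Of the 11 genes only HOXB3 had no overlap between the tags of the 2 arrangements: 0.883 to 22.8 CPM in 3DFusi against 0.0910 to 0.817 CPM in 2DCocu. The share of all genes without overlap was not taken, so this count is not read as a result about HOX genes.

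The sum over the 17 genes without overlapping gene models was 4.25 ± 2.13 CPM in 3DFusi (SD, n = 10 tags) and 3.34 ± 0.596 CPM in 2DCocu (SD, n = 12), a difference within the spread of the 3DFusi tags. The sum of the 8 mesenchymal markers, each with a count in both arrangements, was 214 to 4353 CPM in 3DFusi and 504 to 1806 CPM in 2DCocu. The 10 markers of hindbrain or spinal neurons, all counted in both, summed to 8.53 to 95.7 CPM in 3DFusi (median 58.5) and 58.2 to 147 CPM in 2DCocu (median 109), with overlap, and their part in the change of HOXA2 was not tested. Without mesenchymal-like, muscle-like and cluster 23 cells, 9 of the 9 HOX genes still tested were called, 8 higher and HOXA2 lower, where 50.8% of all genes were. With the number in the tag as a block, 6 of the 11 were called, beside 44.9% of all genes: HOXB2 (edgeR adjusted p 0.0953) and HOXD3 (0.296) were not, and for HOXA9, HOXB7 and HOXB9 that fit gave no usable standard error. The block fit judges the arrangements by the spread within a number alone, so its count is no check on their difference. With Vehic tags alone, HOXA2 was lower by 0.69 log2 units (SE 0.36) and no longer called (edgeR adjusted p 0.173).

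**Figure D3:**
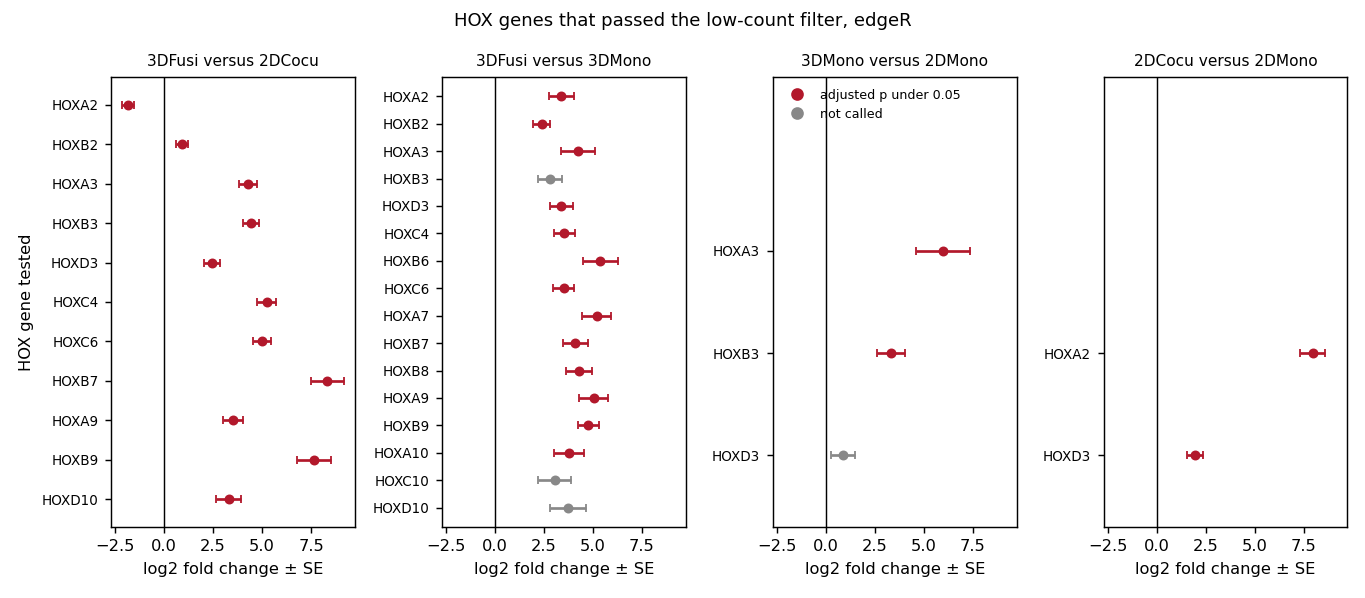
Log2 fold change (point) and its SE (bar) by edgeR of every HOX gene that passed the filter, in 4 comparisons of arrangements, ordered by paralog number from the top; red points have an adjusted p under 0.05 and grey points do not. In 3DFusi against 2DCocu HOXA2 lies at −1.83 and the other 10 genes above 0, and in 3DFusi against 3DMono all 16 genes lie above 0.

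The comparison of 3DFusi with 3DMono uses the AcMor and Vehic tags that both have, 6 against 4. Here 13 of the 16 HOX genes tested were called by edgeR, all higher in 3DFusi, against 1.48% of all genes tested (1.08% higher). The summed HOX level was 43.6 to 133 CPM in these 3DFusi tags and 3.03 to 20.1 CPM in those of 3DMono, with no overlap. The other 23 HOX genes did not pass the filter on low counts, and among the 3DMono tags fitted alone only HOXA3, HOXB3, HOXC4 and HOXD3 passed it. The other 12 genes tested entered through 3DFusi, where they are high, so their calls add little to the levels, and the count of 13 is not read against the share of all genes. This comparison shares its 3DFusi tags with the one above.

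HOXB9 rose by 4.75 log2 units (SE 0.54, edgeR adjusted p 0.00431), from 0 to 0.145 CPM in 3DMono to 1.16 to 3.90 CPM in 3DFusi. The trunk genes HOXB6 (5.37, SE 0.90), HOXA7 (5.18, SE 0.73), HOXA9 (5.05, SE 0.74), HOXB8 (4.28, SE 0.66) and HOXB7 (4.1, SE 0.65) also rose. HOXA7, HOXA10 and HOXB6 had 2.0, 2.3 and 1.5 expected counts over the 4 tags of 3DMono, and their ratios of pooled CPM were 50.2 (exact 95% counting interval 13.6 to 419), 22.2 (6.35 to 152) and 44.6 (10.1 to 629). HOXA3 rose by 4.24 (SE 0.84) and HOXD3 by 3.37 (SE 0.59), HOXC4 by 3.54 (SE 0.55) and HOXC6 by 3.5 (SE 0.54). HOXA10 rose by 3.76 (SE 0.77), HOXA2 by 3.39 (SE 0.64) and HOXB2 by 2.37 (SE 0.45), the smallest of the 13. HOXB3 (2.79, SE 0.61, edgeR adjusted p 0.0506), HOXC10 (3.04, SE 0.84, 0.0902) and HOXD10 (3.71, SE 0.92, 0.0682) were not called. The tags of the 2 arrangements overlapped for HOXB3 and HOXD10 and not for the other genes tested. Most of the 16 entered through 3DFusi, where they are high, and no such share over all genes was taken. Lack of overlap is therefore not read as a result about them.

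The count depended on single tags, and whether calls over all genes fell with it is not reported here. It was 2 of 15 tested without 3DMono AcMor 1, 6 of 11 without 3DFusi AcMor 3, 8 of 13 without 3DFusi AcMor 4 and 8 of 15 without 3DMono Vehic 1. With the Vehic tags alone 0 of 14 were called by edgeR, where 5 of 22513 genes were, and 13 of the 14 had an unadjusted p under 0.05, as did 2403 of all genes. DESeq2 called all 16, where it called 6.56% of all genes. With the number in the tag as a block all 16 were called by edgeR (9.49% of all genes). That fit judges the arrangements by the spread within a number alone, so its count is no check on their difference. With the 3DFusi tags of a number summed, edgeR called 9 of the 16 (0.49%). In the AcMor and Vehic tags the 10 markers of hindbrain or spinal neurons summed to 18.8 to 95.7 CPM in 3DFusi. In 3DMono they summed to 12.9 to 21.6 CPM, with overlap, and EVX1 was at 0 over all its tags. Their part in the result was not tested. The 8 mesenchymal markers, each with a count in both, summed to 516 to 1818 CPM in these 3DFusi tags and 166 to 582 CPM in those of 3DMono. The part of the mesenchymal markers was not tested beyond the next fit. Without the mesenchymal-like, muscle-like and cluster 23 cells 9 of 11 tested were called, all higher (2.03% of all genes were called), and among neuron-like cells no HOX gene passed the filter.

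The comparison of 3DMono with 2DMono, 6 tags each, sets the 3-D beside the 2-D arrangement of the same name. Only 3 HOX genes passed the filter, and edgeR called 2 of them, both higher in 3DMono, against 38.0% of all genes tested (17.5% higher). HOXB3 had 0.609, 0.961 and 7.09 CPM in 3DMono (lowest, median, highest) and 0.0663, 0.189 and 0.441 CPM in 2DMono, with no overlap, and rose by 3.35 log2 units (SE 0.71, edgeR adjusted p 0.00217). HOXA3 had 0.0577, 0.617 and 3.40 CPM in 3DMono and 0 to 0.0995 CPM in 2DMono, and rose by 5.97 (SE 1.37, edgeR adjusted p 0.00379). HOXB3 had 18.8 expected counts over the 6 tags of 2DMono and HOXA3 had 2.4. Among the 2DMono tags fitted alone neither passed the filter, so both entered this test through 3DMono and their calls add little to the levels. For HOXA3 the ratio of pooled CPM was 25.5 (exact 95% counting interval 7.52 to 165). HOXD3, at 0.330 to 4.43 CPM and 0.106 to 1.37 CPM, differed by 0.89 (SE 0.63, edgeR adjusted p 0.289) and was not called. HOXA3 and HOXB3 are both among the genes with overlapping models, and the sum over the 17 others was not higher in 3DMono (0.330 to 1.14 CPM) than in 2DMono (0.231 to 1.53 CPM).

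The call of HOXA3 ended without 2DMono Vehic 1 (edgeR adjusted p 0.102), and with Vehic tags alone HOXB3 was not called (4.31, SE 1.30, edgeR adjusted p 0.0919). Without the mesenchymal-like, muscle-like and cluster 23 cells no HOX gene passed the filter. The 8 mesenchymal markers, each with a count in both, summed to 166 to 582 CPM in 3DMono and 591 to 1601 CPM in 2DMono. The mesenchymal-like, muscle-like and cluster 23 cells made up 3.17% to 10.9% of the 3DMono tags and 0.992% to 5.99% of the 2DMono tags. Their part in the result was not tested beyond the fit without them.

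The comparison of 2DCocu with 2DMono uses the AcMor and Vehic tags, 8 against 4, and stays within the 2-D format. Both HOX genes that passed the filter were called higher in 2DCocu by edgeR, against 29.9% of all genes tested (14.6% higher). HOXA2 had 1.49 to 3.22 CPM in 2DCocu and no count in 2DMono. Against a floor of 3 counts over the 4 tags of 2DMono it was at least 65.6-fold higher. That floor rests mostly on 2DMono Vehic 1, with 58777177 counts against 5027412 to 15238367 in the other tags. HOXA2 entered the test only through 2DCocu, where it is high, so its call adds nothing to these values. HOXD3 had 1.25 to 4.08 CPM in 2DCocu and 0.328 to 1.37 CPM in 2DMono, and rose by 1.95 log2 units (SE 0.40, edgeR adjusted p 0.00110). Both were called in all 12 fits that left out 1 tag. The 10 markers of hindbrain or spinal neurons summed to 58.2 to 129 CPM in these tags of 2DCocu and to 6.24 to 15.3 CPM in those of 2DMono, where, over all its tags, TLX3 was at 0. Their part in the result was not tested.

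No HOX gene was called by edgeR in any comparison of a treatment tag with Vehic, over 8 such contrasts in 2DCocu, 3DFusi, 2DMono and 3DMono. Only 1 HOX gene was tested in each 2DMono contrast and 4 in each 3DMono contrast, so most HOX genes were not examined there. The shares of all genes called were 6.09% for AcCoc and 0.975% for AcMor in 2DCocu, where 2 HOX genes were tested, and 0.0% in the other 6 contrasts. At an unadjusted p under 0.05 edgeR found 22.1% and 14.4% of genes in those 2, 0.748% in 3DFusi AcMor, 2.42% and 6.42% in 2DMono AcDop and AcMor and 3.35% and 8.71% in 3DMono AcDop and AcMor, with no HOX gene in any of these 7. DESeq2 called no HOX gene in the 8. In 3DFusi AcCoc against Vehic, 0.0% of 23676 genes were called by edgeR (394, or 1.66%, had an unadjusted p under 0.05), and DESeq2 called 1 gene, which was not a HOX gene. Of the 15 HOX genes tested there, 6 had an unadjusted p under 0.05 and all 6 were lower in AcCoc, such as HOXB9 (−2.78, SE 0.78) and HOXA2 (−2.21, SE 0.62), with an edgeR adjusted p of 1.00 each. The summed level was 6.44 to 79.2 CPM in the 4 AcCoc tags and 45.8 to 133 CPM in the 3 Vehic tags, with overlap. In 3DFusi the tags of a number deviated together, and on the full sum AcCoc and AcMor were below Vehic within each of the 3 numbers that all treatments share: 6.44 and 43.6 against 45.8 CPM, 44.1 and 107 against 133 CPM, and 79.2 and 70.0 against 126 CPM. This order did not hold throughout on other sums. Without mesenchymal-like, muscle-like and cluster 23 cells AcMor 1 had 40.8 CPM against 37.2 CPM in Vehic 1. Over the 17 genes without overlapping gene models AcCoc 4 and AcMor 4 had 5.44 and 5.07 CPM against 5.04 CPM in Vehic 4. The other pairs kept the order on both sums. With the number as a block edgeR called no HOX gene of 15 and no other gene in either contrast. At an unadjusted p under 0.05 that fit found 10 of the 15 for AcCoc (990 of 23676 genes) and 1 for AcMor (1016 genes). The contrasts of an arrangement share its Vehic tags.

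The arrangements named Proto were compared pairwise. All 5 were fitted together, so the same 19 HOX genes were tested in each contrast, and these passed the filter through the 3-D Proto tags: the 6 2-D Proto tags held only 10.4 to 45.7 HOX counts each. The 2-D contrasts therefore say little about HOX genes. Among the 3 2-D ones no HOX gene of the 19 was called by edgeR in any of 3 contrasts, where 5.57%, 9.54% and 17.0% of all genes were. None had an unadjusted p under 0.05 (18.7%, 24.3% and 32% of all genes did), and DESeq2 called none. Between 3DProto1For and 3DProto2Xia 0 of 19 HOX genes and 0.0% of 25578 genes were called by edgeR, while 3509 genes (13.7%), 10 of them HOX genes, had an unadjusted p under 0.05. DESeq2 called 115 genes and no HOX gene. The summed level ranged from 0.368 to 284 CPM over the 3 tags of the first and from 0.386 to 48.3 CPM over those of the second, and overlapped.

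Genes that act with or on HOX genes were counted from lists of 16 HOX antisense and intergenic RNAs, 9 MEIS, PBX and PKNOX cofactors, 15 retinoic acid genes, 10 caudal and hindbrain regulators, 10 forebrain and midbrain regulators and 8 members of Polycomb repressive complex 2. Among the non-coding RNAs of the clusters, in 3DFusi against 2DCocu 5 of the 6 tested were higher by edgeR, beside 26.1% of all genes, and HOTAIRM1, like HOXA2, was lower (−0.73, SE 0.29). In 3DFusi against 3DMono, 4 of the 6 tested were higher and none lower, beside 1.08% and 0.398% of all genes: HOXA-AS2 by 3.98 log2 units, HOXB-AS3 by 3.77, HOXA-AS3 by 5.10 and HOTAIRM1 by 3.36 (SE 0.44, 0.50, 0.81 and 0.53). The median of the 6 tested was 3.57 against −0.0033 over all genes tested. HOXA-AS3 had 3.17 expected counts over the 12 tags of 2DCocu and 14.5 over the 6 of 3DMono. RNAs that low entered these tests through 3DFusi, where they are high. The counts and the median of these 2 comparisons are therefore not read against all genes. In 2DCocu against 2DMono both tested were higher, beside 14.6% of all genes, HOTAIRM1, an RNA of the HOXA cluster, by 4.00 (SE 0.39) and HOXB-AS1 by 1.15 (SE 0.35). HOXB-AS3 was the most abundant of them, at 35.3 ± 25.2 CPM in 3DFusi (SD, n = 10 tags) and 0.343 ± 0.175 CPM in 2DCocu (SD, n = 12). Counts of antisense RNAs and of their HOX partners are not independent where the reads were shared between them.

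Cofactors and upstream genes were counted in the same fits. In 3DFusi against 3DMono none of the 9 cofactors, 13 retinoic acid genes, 5 caudal and hindbrain regulators and 8 Polycomb members tested were called by edgeR in either direction. Over all genes tested 1.48% were called, and at that share lists this short hold few calls or none. The lack of calls is therefore not read as a lack of change. Of the forebrain and midbrain regulators 2 of 9 were higher, beside 1.08% of all genes: EN1 (4.92, SE 0.67) and EN2 (1.40, SE 0.25), both genes of the midbrain and hindbrain border. In 3DFusi against 2DCocu 2 of the 9 cofactors were higher, PBX3 (0.70, SE 0.16) and MEIS2 (0.52, SE 0.21), and PKNOX2 was lower (−0.40, SE 0.09). There 8 of 14 retinoic acid genes were higher and 2 lower, beside 26.1% and 22.7% of all genes, with a median of 0.82 against 0.04 over all genes, among them CRABP2 (1.84, SE 0.22), which carries retinoic acid in the cell, and the receptor gene RARB (0.99, SE 0.13). In 2DCocu against 2DMono, 6 of 14 retinoic acid genes were higher and 2 lower, beside 14.6% and 15.3% of all genes, 2 of the 9 cofactors were higher, MEIS1 by 2.00 (SE 0.21) and PKNOX1 by 0.30 (SE 0.10), and 6 of 8 forebrain and midbrain regulators were lower, such as OTX2 (−1.38, SE 0.13) and LHX2 (−0.64, SE 0.12). In 3DMono against 2DMono, 5 of 13 retinoic acid genes were higher and 3 lower, and 3 of 8 forebrain and midbrain regulators were higher and 3 lower, beside 17.5% and 20.4% of all genes.

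Cells were grouped into 30 clusters with all HOX genes left out of the genes used, so that HOX levels did not shape the groups. HOX counts were found in 9.17% of all cells (4005), and 1975 cells had 2 or more different HOX genes, up to 14. Low shares were seen in 3 neural classes: a HOX count was found in 1.48% of excitatory neuron-like cells, 1.25% of GABAergic neuron-like cells and 0.958% of astrocyte-like cells (median 12253, 9935 and 12637 counts per cell). Neurons and glia of the hindbrain and spinal cord do use HOX genes, so some of these counts may be expression. Shares at or below these values are read as background. Intervals below are exact binomial at 95% and cover counting error only. A cluster set beside others is a description and not a test.

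The cluster with the highest HOX level, number 23, had HAND2 and NOS1 among its leading genes and had too few markers of any list to be named. It had a HOX count in 67.9% of its 701 cells (64.3 to 71.3%), at 242 CPM, and 87.7% of its cells came from 3DFusi. HOXD3 was found in 46.6% of its cells, HOXB3 in 35.9% and HOXA3 in 31.0%, and paralogs 10 to 13 gave 1.27% of its HOX counts. With 1.60% of all cells it held 17.5% of all HOX counts. Across the 6 3DFusi tags with at least 20 of its cells, 46.4% to 90.5% of them had a HOX count, and in 3DProto1For tag 2 it was 22.1% of 86 cells (13.9 to 32.3%) at 12.6 CPM. In cells thinned to 5000 counts the shares were 37.5% to 68.4% in the 3DFusi tags and 2.33% in that tag, which rests on few cells. Thinned alike, excitatory neuron-like, GABAergic neuron-like and astrocyte-like cells had 0.387%, 0.4865% and 0.0%.

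The mesenchymal-like cluster 4, which had all 8 mesenchymal markers and was led by OGN, C7 and COL3A1, had a HOX count in 38.0% of 2861 cells (36.2 to 39.8%) and held 26.8% of HOX counts at 80.2 CPM. HOXA3 (16.2 CPM), HOXD3 (13.6 CPM), HOXB3 (12.8 CPM), HOXC4 (7.17 CPM) and HOXD10 (6.40 CPM) were its leading members. The mesenchymal-like cluster 21, led by ITGA11, FN1 and COL6A3 and taken mostly from 2DCocu (59.2%), had another make-up: 17.8% of 726 cells had a HOX count, at 12.7 CPM, and paralogs 10 to 13 gave 54.6% of its HOX counts, against 18.5% in cluster 4. HOXA13, the last gene of the HOXA cluster and a gene of the limb end and the hindgut, led there with 3.30 CPM. The muscle-like cluster 26, led by MYH8, TTN and ACTC1, had a HOX count in 48.5% of 373 cells (43.4 to 53.7%), and HOXD3 alone was in 37.8% of its cells.

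Clusters 11, 7 and 25 were rich in low paralogs. Cluster 11, hindbrain or spinal neuron-like with SLC6A5 and PAX2 among its leading genes, had a HOX count in 16.5% of 1584 cells (14.7 to 18.4%), at 12.4 CPM. The unnamed cluster 7, led by ALDH1L1, had one in 14.9% of 2188 cells (13.4 to 16.5%), at 14.3 CPM. Clusters 11 and 7 came almost wholly from 2DCocu (97.5% and 99.7%), and paralogs 1 to 3 made up 86.5% and 92.9% of their HOX counts. The unnamed cluster 25, where markers of cycling cells were high, had a HOX count in 17.1% of 375 cells (13.4 to 21.3%), at 10.8 CPM, with 92.8% of its cells from 2DCocu and 88.5% of its HOX counts in paralogs 1 to 3. HOXA2 led cluster 11 with 5.30 CPM in 8.71% of cells, and HOXD3 (6.65 CPM) and HOXA2 (4.01 CPM) led cluster 7. Over the 12 tags of 2DCocu, 6.93% to 25.0% of cluster 11 cells and 7.65% to 28.1% of cluster 7 cells had a HOX count. In cells thinned to 5000 counts the shares were 0.0% to 13% in cluster 11, where the lowest tag was Vehic 4 with none, and 3.03% to 13.3% in cluster 7.

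Clusters 9, 5 and 14 had higher levels and more of the middle paralogs. The ciliated or ependymal-like cluster 9 had a HOX count in 18.8% of 1841 cells (17.0 to 20.7%) at 82.0 CPM, the unnamed cluster 5 in 12.9% of 2531 cells (11.6 to 14.3%) at 77.8 CPM, and the unnamed cluster 14 in 11.4% of 1369 cells at 48.4 CPM. Paralogs 4 to 9 gave 35.0%, 38.0% and 32.6% of their HOX counts, against 11.8% in cluster 11 and 4.21% in cluster 7. In cells thinned to 5000 counts the shares were 51.1% in cluster 23, 25.8% in cluster 26 and 22.2% in cluster 4. They were 13.3% in cluster 9, 9.37% in cluster 5 and 3.85% in cluster 25. Clusters 14, 11 and 7 were close to each other, at 6.28%, 6.21% and 6.00%.

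**Figure D4:**
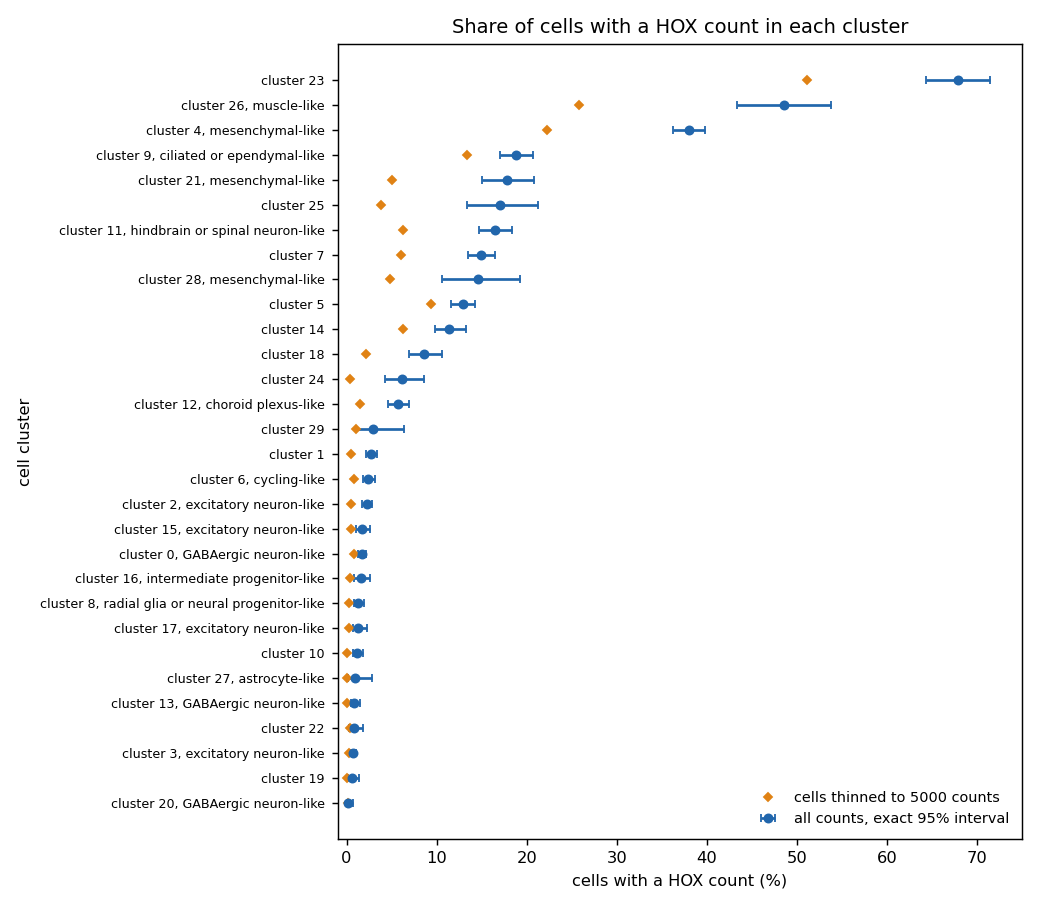
Share of cells with a HOX count (percent) in each of the 30 cell clusters; blue points with bars are all counts with exact binomial 95% intervals, and orange diamonds are cells thinned to 5000 counts. Cluster 23 stands highest at 67.9% (51.1% thinned) and the muscle-like cluster 26 follows at 48.5% (25.8% thinned), while the excitatory and GABAergic neuron-like clusters lie near 0.

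Within 1 cluster the tags still differed. In cluster 5, HOX counts were found in 59.3% of 167 cells of 3DProto1For tag 1 (51.4 to 66.8%), at 590 CPM, in 15.5% of 181 cells of tag 2 (10.53 to 21.58%), and in 0 of 82 cells of tag 3, which allows a share of cells with a count of up to 3.66% (3 cells of the total) and sets no limit on cells that express the genes. In the same cluster they were found in 1.55%, 5.33% and 1.37% of cells of the 3DProto2Xia tags and in 6.10% to 37.9% of those of 7 3DFusi tags. In cluster 9 they were found in 36.3%, 14.1% and 1.01% of cells of the 3DProto1For tags, in 0 of 156, 8.55% and 0.717% of those of 3DProto2Xia, and in 18.5% to 56.4% in 8 3DFusi tags. In cells thinned to 5000 counts the 3 tags of 3DProto1For gave 52.5%, 8.89% and 0.0% in cluster 5 and 33.7%, 6.88% and 1.06% in cluster 9, and the 3DFusi tags 1.85% to 34.5% and 7.04% to 47.7%. The differences between tags of 3DProto1For were thus also present among cells of the same cluster, outside mesenchymal-like and muscle-like cells.

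In the mesenchymal-like cluster 4 the share was 63.8%, 78.9% and 60.4% in 3DProto1For tags 1 and 2 and 3DProto2Xia tag 2, between 22 of 110 cells and 53.7% in 9 3DFusi tags and 3.16% to 25.0% in the 6 3DMono tags. In cells thinned to 5000 counts they were 37.4%, 44.2% and 36.4%, then 7.14% to 29.5% in 3DFusi and 0.0% to 16.1% in 3DMono. The median count per cell of these cells ranged from 8786 to 54781 between tags. The 3DMono AcMor 1 cells had a low share, 6.52% of 46 cells, at a median of 40001 counts, and 3DFusi AcCoc 1 fell from 22.4% to 7.14% on thinning, at a median of 54781.

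**Figure D5:**
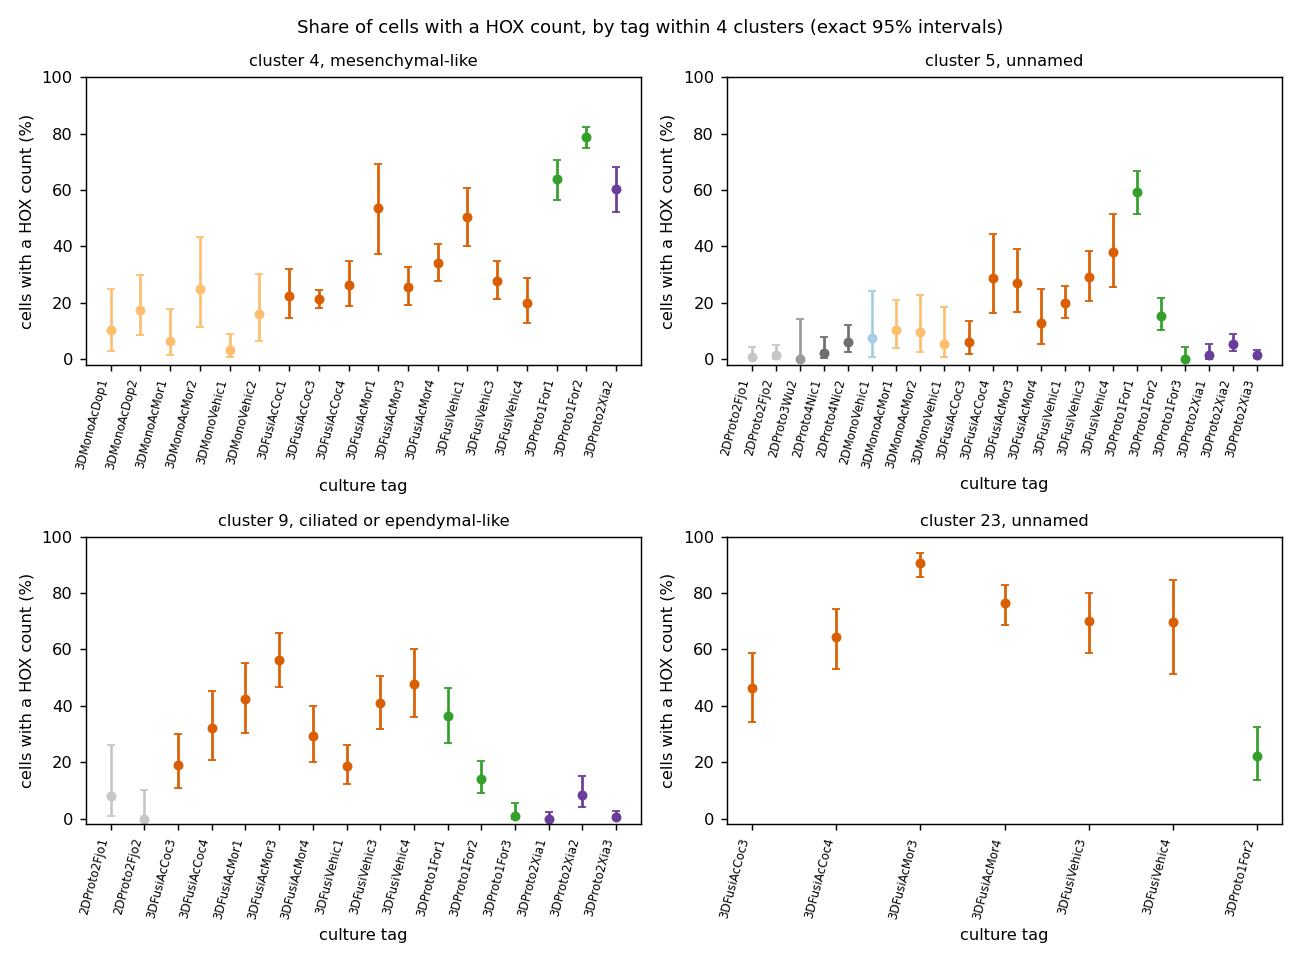
Share of cells with a HOX count (percent, with exact binomial 95% intervals) in each culture tag with at least 20 cells of clusters 4, 5, 9 and 23, coloured by arrangement. In cluster 5 the 3 tags of 3DProto1For lie at 59.3%, 15.5% and 0%, and in cluster 23 the 6 3DFusi tags lie between 46.4% and 90.5%.

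Of the 4005 cells with a HOX count, 2030 held exactly 1 HOX gene. Among the 1975 cells with 2 or more HOX genes, 13% held genes of 1 HOX cluster, 37.9% of 2, 28.6% of 3 and 20.6% of all 4. The highest paralog number in the cell was 1 to 3 in 14.3%, 4 to 9 in 56.4% and 10 to 13 in 29.3%. These cells had a median of 17364 counts, against 12456 in cells with no HOX count, and 9.16% of them were called doublets, against 3.55% of all cells. The 5% of cells with the most HOX counts, among those with any, held 27.5% of them.

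Regional genes were set beside HOX genes in cells thinned to 5000 counts, as a description over cells that share tags. Cells with and without HOX genes also differ in type. Before thinning, 55.9% of cluster 23 cells and 24.0% of mesenchymal-like cluster 4 cells had 2 or more HOX genes, against 0.236% of excitatory neuron-like cells. HAND2 was a leading gene of cluster 23. The part of this mix of cells in the values below was not tested. Of 1957 cells with 2 or more HOX genes, 2.76% had an LHX2 count, against 16.3% of 38155 cells with none, and OTX2 was in 2.15% against 7.18% and EMX2 in 1.53% against 6.46%. LHX2, OTX2 and EMX2 are forebrain and midbrain regulators. OTX1 (1.02% against 3.07%) and SIX3 (1.18% against 4.35%), of the same list, were also lower, while EN1 (0.511% against 0.136%) and EN2 (3.07% against 1.39%) were higher. HAND2, a gene of autonomic and heart lineages, was in 10.4% against 0.364%, RARB in 41.7% against 21% and MEIS1 in 59.4% against 30.2%. MEIS2 was in 68.1% against 67.8%. CDX2, a caudal regulator that acts on HOX genes, was in 2 of the 1957 cells (0.102%) and in 7 of the 38155 (0.0183%).

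Across the 46 tags, the 10 genes whose level followed the HOX sum most closely, by Spearman's rho among 20190 genes, were ENPP1 (0.864), IGF2 (0.849), CPED1 (0.849), SYNPO2 (0.832), COL14A1 (0.831), NRK, 2 genes known only by an Ensembl identifier (0.827 and 0.826), RBMS3 (0.819) and EBF1 (0.818). IGF2 encodes an imprinted growth factor, COL14A1 a collagen and EBF1 a transcription factor. HOTAIRM1 had a rho of 0.743, RARB 0.717 and MEIS1 0.664, and LHX2 −0.392. The tags share 1 pool and differ in their mix of cells, so these values describe the set of tags.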

How the data were processed

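The deposited file is 1 matrix of genes by cells made by the authors. Its values are expected counts, as deposited: many entries are not whole, and the totals differ between cells. Per the submitters' processing notes, hg38, Salmon 1.7.0, alevin and Seurat 4.1.1 were used. How reads that fit several genes were shared out, and whether strand was used, is not given in the sources used here. Cells were not filtered further. Of 41192 barcode combinations, 2393 occurred in more than 1 sublibrary.

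Culture tags were read from the cell names. For each tag the counts of its cells were added up, rounded to whole numbers, and tested with edgeR 4.0.16 in R 4.3.3 (filterByExpr, TMM, glmQLFit with the robust option, glmQLFTest), fitted over all genes with Benjamini-Hochberg adjustment at 0.05. Treatment was a covariate between arrangements. Levels are CPM. A cell was taken to hold a gene when its entry was 0.5 or more, and cells were thinned to 5000 counts to compare shares. In 3DFusi tags with the same number deviated together (correlations 0.148 to 0.617 over 9 pairs), while in 2DCocu, 2DMono and 3DMono (0.0753 to 0.278 over 6 pairs) not every pair was over 0.1, the limit used. The tests were tried on simulated counts.

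Clusters came from 2000 variable genes without HOX names, 30 principal components, 20 neighbours and Leiden at resolution 0.8 (scanpy 1.11.5, leidenalg 0.10.2, Python 3.11.15). A cluster took an "-like" name from at least 3 markers that were 40% of a list, each in 10% of cells and at least 2-fold higher than elsewhere. Doublets scored against simulated ones (threshold 0.71, below 37.1% of simulated doublets) were 1551 cells (3.55%) and were kept.

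Every HOX gene was counted in every comparison. Values of some single genes are not reported here. Values are given for the 10 with the most counts and for those called, and the other genes come from the lists. The HOX genes and lists were chosen with earlier results of these data known. Alternatives were DESeq2 1.42.0, RLE factors, no low-count filter, no robust option, doublets left out, neuron-like cells, Vehic tags, a replicate block, 1 fit over 4 arrangements and each tag left out. Sums without some clusters, and 3DFusi tags summed by number, were added after seeing the data.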

Additional observations from a re-analysis of the deposited data

Results flagged for a closer look

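Within each group of 4 to 10 tags the highest and the lowest tag were compared with their neighbours, for HOX sums, shares of cells and leading members. Of 39 groups looked at, 6 held a tag whose gap to the next was large for the range of the group, and chance gives about 1 in 20. In 4 of them the tag was 3DMono Vehic 2 within the 6 tags of 3DMono: its HOX sum was 20.1 CPM with the next tag at 6.68 CPM, the share of its cells with a HOX count was 6.39% with the next at 2.74%, HOXB3 was 7.09 CPM with the next at 2.03 CPM, and HOXD3 was 4.43 CPM with the next at 1.44 CPM. The 8 muscle markers summed to 2561 CPM in this tag and 33.4 to 160 CPM in the other 5, and mesenchymal-like, muscle-like and cluster 23 cells made up 10.9% of it and 3.17% to 6.76% of the others. Without those cells the HOX sum of this tag was 15.9 CPM and that of the other 5 was 1.09 to 4.98 CPM. In 2DCocu AcCoc, the tag numbered 1 had a HOX sum of 7.20 CPM with the next at 5.97 CPM. In 2DCocu AcMor, the tag numbered 1 had 3.75 CPM of HOXD3 with the next at 2.07 CPM.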

How the results depend on the processing

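No HOX gene changed direction under any alternative run. Of the counts of HOX genes called, 49 values under other settings stayed within 1.5 times the main count and 14 did not; of those that left out a tag, 106 did and 8 did not. Of the single gene calls between these arrangements, 26 were lost and 9 gained under other settings, and 36 were lost and 5 gained without 1 tag. A gene that did not pass the filter of an alternative fit is not counted as lost. Of the shares of cells with a HOX count by class, 33 of 55 moved beyond their interval, 22 of them on thinning to 5000 counts, 9 with every entry above 0 counted and 2 of 9 with clusters at resolution 0.4. The cause was not tested unless fewer genes, cells or tags entered the fit.

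With no filter on low counts the counts were 8 of 32 tested (3DMono against 2DMono), 27 of 39 (3DFusi against 2DCocu), 7 of 30 (2DCocu against 2DMono) and 1 of 238 (treatments against Vehic), beside 22.1%, 27.5%, 16% and 0.823% of all genes in those fits. In neuron-like cells they were 0 of 0 tested in 3DMono against 2DMono and in 3DFusi against 3DMono, 1 of 1 in 3DFusi against 2DCocu and 1 of 1 in 2DCocu against 2DMono (31%, 0.0%, 50.5% and 22.7% of all genes). With Vehic tags alone they were 0 of 2 in 3DMono against 2DMono and 0 of 14 in 3DFusi against 3DMono (14.4% and 0.0222% of all genes). For 3DMono against 2DMono the count was 1 of 2 without doublets (37.7% of all genes), 6 of 15 in 1 fit over 4 arrangements (34.1%), and 0 of 0 without mesenchymal-like, muscle-like and cluster 23 cells, a setting chosen after seeing the data. The HOX sum of 2DProto4Nic was 1.13 CPM with TMM-scaled library sizes and 0.945 CPM without. In 3DFusi against 3DMono, summing 3DFusi tags by number, also chosen after seeing the data, gave 9 of 16 (0.49% of all genes).

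The shares of all genes called in the fits without 1 tag are not reported here. Leaving out each tag in turn gave 2 to 4 calls in 3DMono against 2DMono and 9 to 12 in 3DFusi against 2DCocu. It gave 2 to 15 in 3DFusi against 3DMono and 2 to 3 in 2DCocu against 2DMono. For the treatments and between the 2-D and the 3-D Proto arrangements it gave 0 to 0. The mean HOX sum then ranged from 59.2 to 73.3 CPM in 3DFusi, 7.21 to 7.66 in 2DCocu, 4.48 to 7.94 in 3DMono, 2.46 to 2.92 in 2DMono, 52.4 to 194 in 3DProto1For, 0.40 to 24.3 in 3DProto2Xia, 0.429 to 0.582 in 2DProto2Fjo, 0.411 to 0.605 in 2DProto3Wu and 0.906 to 0.984 in 2DProto4Nic.

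The replicate block, the number in the tag within an arrangement, gave 6 of 11 in 3DFusi against 2DCocu, 16 of 16 in 3DFusi against 3DMono, 2 of 3 in 3DMono against 2DMono, 2 of 2 in 2DCocu against 2DMono and 0 for the treatments. Between arrangements the block fit judges the difference by the spread within a number alone, so its counts are no check there. No paired analysis was possible for the Proto arrangements because nothing ties their numbers to each other. Depth limits the genes of low level: 36 of the 39 HOX genes were too low to test in 3DMono against 2DMono, 28 in 3DFusi against 2DCocu, 23 in 3DFusi against 3DMono and 37 in 2DCocu against 2DMono.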
